A study of Mus musculus with 16 samples.

Results

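Brca1 knockdown was compared with the non-targeting control at day 3 of reprogramming in 4 of the 16 RNA-seq libraries of the series, 2 after siBrca1 and 2 after a non-targeting siRNA (nt), and 14028 of the 18990 genes of the deposited table were tested. The libraries were picked by their labels and the genes by their mean level over all 16 libraries (at least 0 on the log2 CPM scale, CPM being the reads of a gene scaled to the size of its library). The cells of both groups were primary mouse embryonic fibroblasts (MEFs, labelled BL6 strain, Wild-type) at passage 2. All of them carried tet-STEMCCA, a doxycycline-inducible lentiviral cassette of Oct4, Sox2, Klf4 and c-Myc, with the rtTA transactivator (MOI of 1). They were reverse transfected with 40 nM of pooled siRNAs, against Brca1 or non-targeting, and induced 24 hours later with 2 ug/mL doxycycline. The medium held 10% FBS, LIF, 3 uM chiron, 50 ug/mL ascorbic acid and 0.25 uM Alk5i, an inhibitor of the TGF-beta receptor kinase, so the controls had the inhibitor too. The siBard1 and siWdr5 libraries of day 3 and the siBrca1 and nt libraries of day 6, 2 of each, are used for comparison only. Each library was made from the bulk RNA of a culture, so fewer cells of a type and less RNA per cell cannot be told apart. Per the authors the 2 replicates of a group were separate experiments. Transcripts of the introduced and the endogenous reprogramming factors were counted together.

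BRCA1 is a tumour suppressor that forms a RING ubiquitin ligase with BARD1. It works in homologous recombination, where PALB2 and BRCA2 act with it on resected DNA ends, and it protects stalled replication forks. Reprogramming asks fibroblasts to divide fast, to give up a mesenchymal and contractile program and to take on epithelial and then pluripotent expression, and repair by homologous recombination is one of the processes such cells draw on.

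The siRNAs show which message was targeted and where. Both sequences are shown as the antisense (guide) strand with its site in the Brca1 mRNA, 5′ to 3′, from the siRNA library of the study, and capitals mark guide bases 2 to 8, the seed, and the bases of the site opposite to them.
guide 1: aAGGACAUugugaaggccctt
site 1: gggccttcacaATGTCCTt
guide 2: aCUAAACCuugugcuuccctg
site 2: gggaagcacaaGGTTTAGt
Site 1 lies at chr11:101535553-101535571 (GRCm38, minus strand), in exon 4 of 23 of the Brca1 transcript at bases 299 to 317 of 6572. Site 2 lies at chr11:101534000-101534018, in exon 5, at bases 352 to 370. Both are in coding sequence, and each matched this transcript once. The table of the siRNA library numbers these exons 3 and 4. The pool held 3 siRNAs, and the sequence of the third was not found in the sources used here.

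Brca1 itself was lower in both siBrca1 libraries. Its level was 82.4 and 78.0 CPM in the nt libraries and 37.5 and 19.4 CPM in the siBrca1 libraries, each pair given as replicate 1 and replicate 2 here and below. Both siBrca1 values lay under both nt values, and replicate 2 was the lower of the pair (2.97-fold lower, log2 fold change -1.57 ± 0.22 (SE), adjusted p = 7.9e-05, limma with Benjamini-Hochberg adjustment as for all adjusted p below). A fold change here is on the scale of the deposited log2 values, to which 0.136 CPM had been added, so it understates the change of the lowest genes.

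Across all genes, 3559 (25.4%) were higher and 3061 (21.8%) lower after siBrca1 at an adjusted p below 0.05, of which 999 (7.12%) were higher and 879 (6.27%) lower by more than 2-fold. These shares are the background against which the counts of each gene list below are to be read. In all 999 and all 879 genes the siBrca1 and nt libraries did not overlap. A lack of overlap stated below therefore adds no support to a gene past 2-fold. The share of all tested genes without overlap is not given here, so for genes under 2-fold it is a description only. The 4 libraries held 14198918 to 17393793 reads, and 3 reads, the floor used here, were worth 0.171 to 0.221 CPM, counting error only. The siBrca1 libraries were unequal: 1693 of the 1878 genes past 2-fold (90.1%) changed more in replicate 2, with a median absolute log2 change of 1.05 in replicate 1 and 1.54 in replicate 2. Without siBrca1 replicate 2 the genes past 2-fold were 690 higher and 474 lower. On the first principal component of the 8 day 3 libraries (51.1% of the variance), the nt libraries stood at -45.6 and -40.0 and the siBrca1 libraries at 22.8 and 53.3. Reads in protein-coding genes made up 75.7% and 78.0% of the nt libraries and 83.0% and 86.6% of the siBrca1 libraries, and the part of this difference in the results was not tested.

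**Figure D1:**
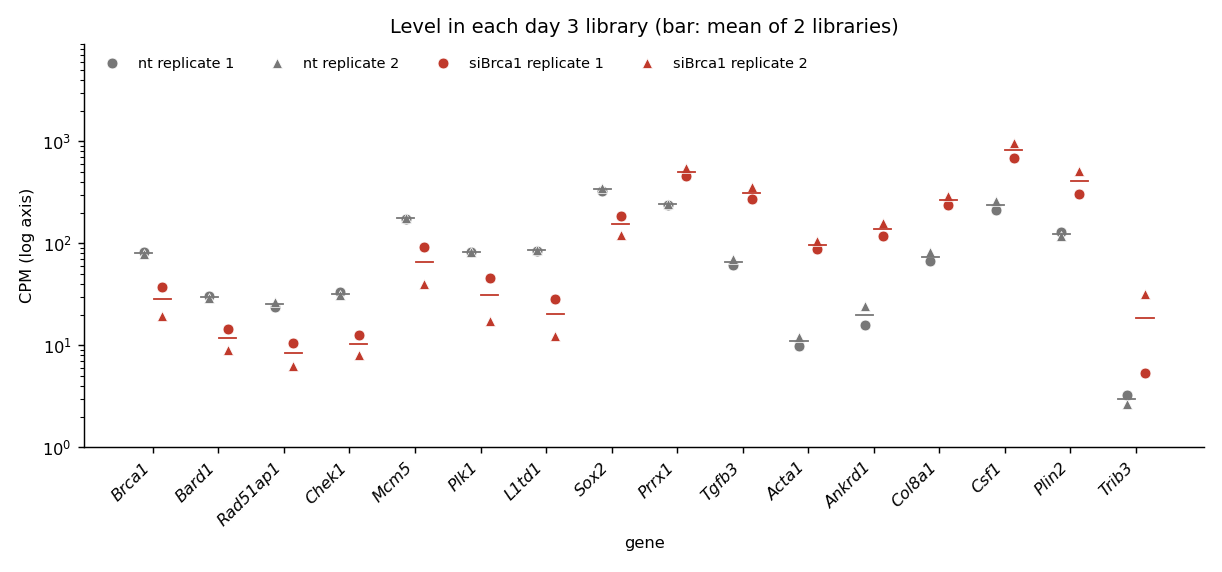
CPM of 16 genes (log axis) in the 2 nt libraries (grey) and the 2 siBrca1 libraries (red) of day 3, circles for replicate 1 and triangles for replicate 2, with a bar at the mean of each pair. Brca1 and the repair, replication and mitotic genes sit lower after siBrca1 with replicate 2 below replicate 1, and the genes from Prrx1 onwards sit higher.

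Most partners of BRCA1 were lower. Of the 12 subunits of BRCA1 complexes besides BRCA1 itself, 9 were lower and 1 was higher. The BRCA1-A complex was split, with 2 of 5 subunits lower, 1 higher and a median of -0.13. Bard1, the RING partner, stood at 30.5 and 29.1 CPM in the nt libraries and 14.4 and 9.07 CPM in the siBrca1 libraries. Both siBrca1 libraries were under both nt libraries (2.60-fold lower, log2 fold change -1.38 ± 0.19 (SE), adjusted p = 7.3e-05). Brca2, a mediator of recombination, went from 29.6 and 32.2 CPM in nt to 16.4 and 16.5 CPM in siBrca1 (log2 fold change -0.91 ± 0.16 (SE), adjusted p = 0.00044), and here the siBrca1 libraries were alike. Topbp1, an activator of the ATR kinase, went from 192 and 186 CPM in nt to 126 and 91.2 CPM in siBrca1 (log2 fold change -0.82 ± 0.13 (SE), adjusted p = 0.00021), again without overlap. Palb2, the bridge from BRCA1 to BRCA2, fell by 1.09 on the log2 scale, the helicase gene Brip1 by 1.28 and the resection factor gene Rbbp8 by 0.67. The 1 subunit that rose, Babam2 of the BRCA1-A complex, had a log2 fold change of 0.41, adjusted p = 0.021, and lost the call without nt replicate 1 (0.35, adjusted p = 0.16), nt replicate 2 (0.46, adjusted p = 0.065) or siBrca1 replicate 1 (0.35, adjusted p = 0.062).

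The wider homologous recombination and Fanconi anemia group moved the same way: 38 of 52 tested genes were lower, 22 of them by more than 2-fold, and 1 was higher, with a median log2 fold change of -0.85 beside 0.0022 over all genes. The median was -0.58 in siBrca1 replicate 1 and -0.97 in replicate 2, and 32 genes stayed past the threshold without replicate 2. Rad51ap1, a cofactor of strand exchange, was measured at 23.8 and 26.8 CPM in the nt libraries and 10.6 and 6.33 CPM in the siBrca1 libraries. All siBrca1 values were under the nt values (3.08-fold lower, log2 fold change -1.62 ± 0.20 (SE), adjusted p = 4.1e-05). Exo1, a nuclease that resects DNA ends, went from 50.7 and 53.9 CPM in nt to 25.6 and 15.1 CPM in siBrca1 (log2 fold change -1.41 ± 0.19 (SE), adjusted p = 5.6e-05). Blm, the helicase lost in Bloom syndrome, went from 31.2 and 33.2 CPM in nt to 16.7 and 14.3 CPM in siBrca1 (log2 fold change -1.06 ± 0.13 (SE), adjusted p = 3.8e-05). By role, 9 of 9 mediators, 7 of 9 resection genes, 11 of 15 Fanconi genes, 5 of 7 resolution genes and 6 of 12 strand exchange genes fell. The mediators include Brca1 itself, the target of the siRNAs, so its fall is part of the counts of this group here and below. Fancd2, which is ubiquitinated at crosslinks, fell by 1.12, while Rad52 did not pass (-0.056, adjusted p = 0.78). Mus81, a nuclease subunit that cuts joint molecules, was the gene that rose (0.43, adjusted p = 0.017), a call lost without nt replicate 1 (0.33, adjusted p = 0.18).

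The DNA damage checkpoint showed 21 of 26 genes lower (median -0.74), and the other 5 did not pass. Chek1, the effector kinase of the replication checkpoint, stood at 32.9 and 31.2 CPM in the nt libraries and 12.7 and 8.08 CPM in the siBrca1 libraries. It was the most strongly changed of the checkpoint genes, with no overlap of the groups (3.16-fold lower, log2 fold change -1.66 ± 0.19 (SE), adjusted p = 1.9e-05). Rif1, which guards DNA ends and replication timing, went from 119 and 102 CPM in nt to 52.4 and 47.1 CPM in siBrca1 (log2 fold change -1.15 ± 0.14 (SE), adjusted p = 3.0e-05). Cdc25a, a phosphatase that releases cyclin-dependent kinases, went from 79.0 and 85.6 CPM in nt to 46.8 and 36.8 CPM in siBrca1 (log2 fold change -0.99 ± 0.13 (SE), adjusted p = 4.9e-05). The sensor kinases moved less, Atm by -0.58 and Atr by -0.47, and both passed, though Atr lost the call without nt replicate 2 (-0.44, adjusted p = 0.064). The gene of 53BP1, Trp53bp1, which opposes resection in favour of end joining, did not pass (-0.010, adjusted p = 0.94). Neither did Prkdc, the kinase of end joining (-0.022, adjusted p = 0.91). Among end joining genes, 7 of 13 were lower: Xrcc6, which encodes the Ku70 subunit that binds broken ends, went from 76.8 and 75.1 CPM in nt to 41.4 and 37.4 CPM in siBrca1 (log2 fold change -0.95 ± 0.11 (SE), adjusted p = 2.5e-05). Polq, the polymerase of theta-mediated joining, went from 29.8 and 29.5 CPM in nt to 13.9 and 7.66 CPM in siBrca1 (log2 fold change -1.52 ± 0.21 (SE), adjusted p = 9.1e-05). Both were lower in both siBrca1 libraries than in any nt library. The checkpoint count was 17 without siBrca1 replicate 2.

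The other repair routes differed in their counts. In mismatch repair 7 of 8 genes fell (median -1.08), in base excision repair 11 of 18 (median -0.58), and in nucleotide excision repair 2 of 13 fell and 2 rose (median -0.0070); the difference between routes was not tested. Pms1, a homolog of bacterial MutL, went from 19.1 and 19.2 CPM in nt to 7.22 and 8.79 CPM in siBrca1 (log2 fold change -1.27 ± 0.16 (SE), adjusted p = 3.6e-05). Its siBrca1 libraries were close to each other and apart from nt. Ung, which removes uracil from DNA, fell by 1.77 on the log2 scale. Both nucleotide excision genes that rose, Ddb1 (0.31, adjusted p = 0.039) and Ercc5 (0.34, adjusted p = 0.014), lost the call without nt replicate 1 (0.30, adjusted p = 0.20 and 0.32, adjusted p = 0.11) or nt replicate 2 (0.32, adjusted p = 0.16 and 0.36, adjusted p = 0.071). Ddb1 lost it without siBrca1 replicate 1 (0.32, adjusted p = 0.075) or replicate 2 (0.30, adjusted p = 0.11) as well, without a filter (adjusted p = 0.061) or a variance trend (adjusted p = 0.057), and after quantile normalization, where its change was 0.0076, adjusted p = 0.94.

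DNA replication genes fell almost as a whole. Of 54 genes, 50 were lower, 36 by more than 2-fold, with a median log2 fold change of -1.15 (-0.83 in siBrca1 replicate 1, -1.46 in replicate 2). Ticrr, which helps to fire origins, was measured at 69.5 and 65.3 CPM in the nt libraries and 31.7 and 20.7 CPM in the siBrca1 libraries. Rfc4, a subunit of the clamp loader, stood at 22.4 and 22.5 CPM in the nt libraries and 9.65 and 7.94 CPM in the siBrca1 libraries. Cdt1, which licenses origins, stood at 70.8 and 71.4 CPM in the nt libraries and 36.8 and 29.2 CPM in the siBrca1 libraries. In each of the 3 genes both siBrca1 libraries were below both nt libraries, with folds of 2.63, 2.56 and 2.17 and adjusted p from 2.1e-05 to 2.7e-05. Pola1, the catalytic subunit of the primer-making polymerase, went from 85.6 and 79.7 CPM in nt to 41.1 and 28.8 CPM in siBrca1 (log2 fold change -1.26 ± 0.16 (SE), adjusted p = 4.0e-05). Of the replicative helicase, Mcm5 fell by 1.54, and of nucleotide supply, Tyms, the thymidylate synthase gene, fell by 1.18 and Rrm2, a ribonucleotide reductase subunit, by 0.57. The 4 genes that did not pass were Orc3 (-0.12), Orc4 (-0.34, past the threshold among genes whose log2 CPM averaged at least 2, adjusted p = 0.047), Pole4 (-0.23) and Rrm2b (-0.081), the reductase subunit that p53 controls. Without siBrca1 replicate 2, 49 genes were lower (median -0.83).

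The promoters of the replication genes were searched for E2F sites, the letters bound by the factors that switch on S phase genes. The windows are RefSeq's 250 bases before to 50 after a start (GRCm38.p6), 44 of the 54 genes matched by symbol, and the letters searched on both strands were TTTCCCGC, TTTCGCGC, TTTGCCGC and TTTGGCGC, which can overlap each other. Here and below a gene was counted if any of its windows held a match. A match was found in 16 genes (36.4%) beside 4.65% of all tested genes with a window and 2.60% of all genes in the RefSeq set. The window of Mcm5, of the replicative helicase, is shown as 1 of those with a match and lies at chr8:75109259-75109558, plus strand, with the matched letters in capitals.
Mcm5: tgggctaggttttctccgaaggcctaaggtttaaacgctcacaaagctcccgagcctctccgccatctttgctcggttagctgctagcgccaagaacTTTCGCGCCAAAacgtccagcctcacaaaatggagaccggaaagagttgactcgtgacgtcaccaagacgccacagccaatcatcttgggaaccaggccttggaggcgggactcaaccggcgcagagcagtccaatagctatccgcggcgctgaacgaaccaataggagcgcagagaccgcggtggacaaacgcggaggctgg
The 2 matches are on opposite strands and share bases. A match is a description of these letters and no measure of binding.

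The mitotic genes were lower almost throughout. Of 50 genes, 49 were lower, 45 by more than 2-fold, with a median of -1.29, and every one of the 50 changed more in siBrca1 replicate 2 (median -1.68) than in replicate 1 (-0.86). Ncapg, a subunit of the condensin that compacts chromosomes, went from 43.5 and 42.7 CPM in nt to 19.1 and 12.9 CPM in siBrca1 (log2 fold change -1.45 ± 0.18 (SE), adjusted p = 2.9e-05). Smc2, its ATPase, went from 119.6 and 103 CPM in nt to 56.3 and 41.1 CPM in siBrca1 (log2 fold change -1.21 ± 0.15 (SE), adjusted p = 3.0e-05). Both subunits were lowest in siBrca1 replicate 2. Mad2l1, of the spindle checkpoint, stood at 54.8 and 56.1 CPM in the nt libraries and 26.1 and 17.5 CPM in the siBrca1 libraries. It was 2.59-fold lower (adjusted p = 3.5e-05). None of these 3 genes overlapped between groups. The mitotic kinase genes Cdk1 and Plk1 fell by 1.39 and 1.56. Pttg1, which encodes securin, was the 1 gene that did not pass (0.54, adjusted p = 0.056). It passed as higher, opposite to the rest of the list, without siBrca1 replicate 1 (0.65, adjusted p = 0.026), with libraries centred on their median gene (adjusted p = 0.041), by limma-voom (adjusted p = 0.034), with a pseudocount of 1 CPM (adjusted p = 0.046) and with the 4 libraries alone (adjusted p = 0.050). The count was 49 and the median -0.86 without siBrca1 replicate 2.

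The CHR, an element of genes that peak in mitosis, is searched here as the letters TTTGAA on either strand. It was present in 28 of the 42 mitotic genes with a promoter window (66.7%), beside 14.1% of tested genes and 20.2% of all RefSeq genes. The window of Plk1 (chr7:122159185-122159484, plus strand) is shown because it holds 1 match close to the start, with its match in capitals.
Plk1: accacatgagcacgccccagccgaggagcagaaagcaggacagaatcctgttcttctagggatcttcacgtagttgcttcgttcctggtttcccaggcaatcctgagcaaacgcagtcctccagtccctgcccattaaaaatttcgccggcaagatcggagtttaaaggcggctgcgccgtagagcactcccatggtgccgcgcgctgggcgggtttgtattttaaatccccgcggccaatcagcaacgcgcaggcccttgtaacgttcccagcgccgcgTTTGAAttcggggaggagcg
Its match starts 30 bases after the start.

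Clustered histone genes, whose messages are made in S phase, were lower in 51 of 55 cases, 50 by more than 2-fold (median -1.58). This set was taken by name pattern after values were seen. Histone reads made up 0.716% and 0.624% of the nt libraries and 0.340% and 0.161% of the siBrca1 libraries. The libraries were made from total RNA depleted of ribosomal RNA, so messages without a poly(A) tail were captured. The median was -0.94 in siBrca1 replicate 1, which is also the median without replicate 2, and -2.16 in replicate 2. Hist1h2bn, an H2B gene, went from 110.2 and 102 CPM in nt to 51.0 and 24.7 CPM in siBrca1 (log2 fold change -1.58 ± 0.23 (SE), adjusted p = 0.00011). Hist1h4a, an H4 gene, went from 240.0 and 201 CPM in nt to 105 and 55.4 CPM in siBrca1 (log2 fold change -1.52 ± 0.23 (SE), adjusted p = 0.00014). Both siBrca1 values were lower in each. Copies of these genes are near-identical, so single values are uncertain where reads could be split between them.

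**Figure D2:**
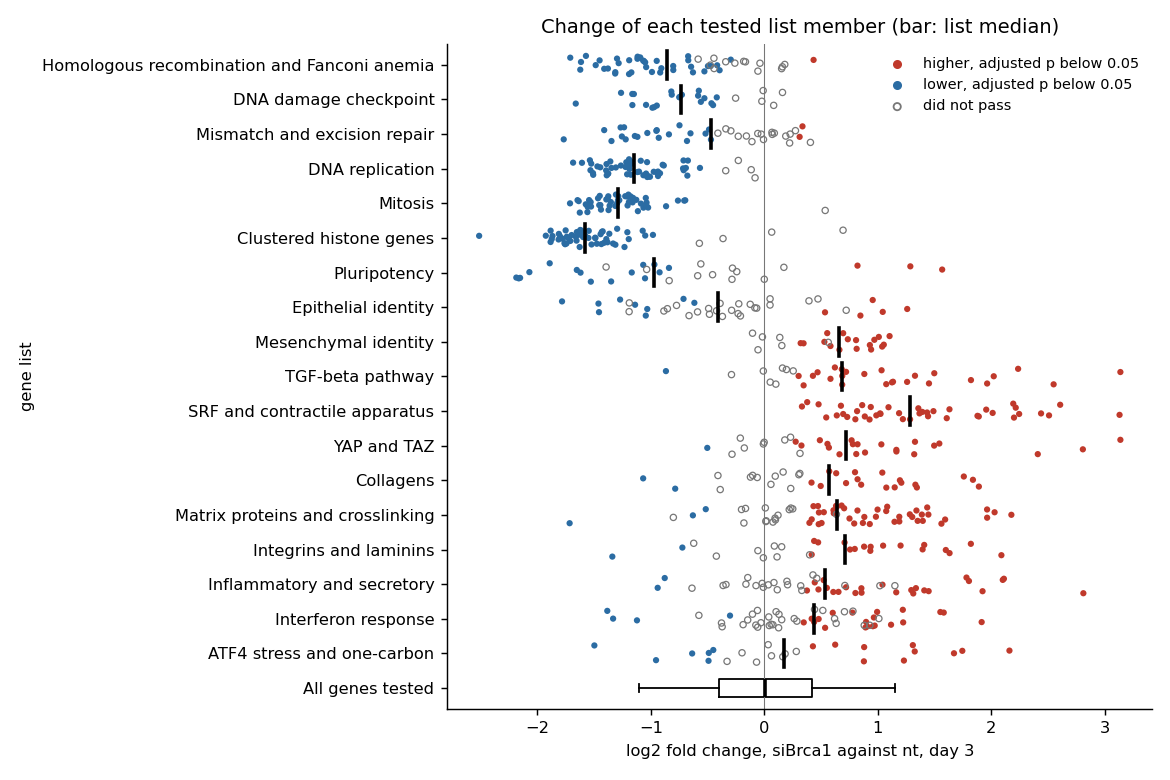
Log2 fold change (siBrca1 against nt, day 3) of each tested member of 18 gene lists, filled red (higher) or blue (lower) where the adjusted p was below 0.05 and open where it was not, with a bar at the list median and, at the bottom, a box for all genes tested (quartiles, whiskers from the 5th to the 95th percentile). Repair, replication, mitotic and histone genes lie mostly left of 0, and contractile, matrix and TGF-beta genes lie mostly right of it.

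Regulators of G1 were split. Of 31 genes 6 rose and 16 fell (median -0.35). Cdkn2b, which encodes the p15 inhibitor of CDK4 and CDK6, stood at 44.2 and 44.2 CPM in the nt libraries and 94.1 and 105 CPM in the siBrca1 libraries. Both siBrca1 libraries were above both nt libraries by 2.25-fold (log2 fold change 1.17 ± 0.11 (SE), adjusted p = 6.1e-06). Ccnd2, a D cyclin gene, went from 1461 and 1493 CPM in nt to 2448 and 2500.0 CPM in siBrca1 (log2 fold change 0.74 ± 0.13 (SE), adjusted p = 0.00035). Mybl2, part of the complex that switches on mitotic genes, went from 97.2 and 105 CPM in nt to 41.7 and 24.3 CPM in siBrca1 (log2 fold change -1.67 ± 0.19 (SE), adjusted p = 1.8e-05). Ccne2, a partner of CDK2 at S phase entry, went from 26.9 and 21.4 CPM in nt to 10.7 and 5.55 CPM in siBrca1 (log2 fold change -1.64 ± 0.24 (SE), adjusted p = 0.00013). The retinoblastoma gene Rb1 did not pass (-0.14, adjusted p = 0.30).

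Among p53 targets, a list that also holds genes of apoptosis, 12 of 37 rose and 4 fell, with a median of 0.051, beside 25.4% and 21.8% of all genes. Pmaip1, which encodes the proapoptotic NOXA, stood at 29.8 and 29.5 CPM in the nt libraries and 55.4 and 68.8 CPM in the siBrca1 libraries. It was higher in both siBrca1 libraries (log2 fold change 1.06 ± 0.12 (SE), adjusted p = 2.2e-05). Mdm2, the ligase that removes p53, went from 193 and 182 CPM in nt to 309 and 363 CPM in siBrca1 (log2 fold change 0.83 ± 0.11 (SE), adjusted p = 4.5e-05). Gdf15, a stress-induced cytokine, went from 10.95 and 8.52 CPM in nt to 23.9 and 39.7 CPM in siBrca1 (log2 fold change 1.67 ± 0.22 (SE), adjusted p = 6.2e-05). Bcl2l1, which encodes BCL-XL and opposes cell death, went from 76.8 and 77.8 CPM in nt to 123 and 139 CPM in siBrca1 (log2 fold change 0.76 ± 0.11 (SE), adjusted p = 8.6e-05). The p53 gene Trp53 fell (-0.46, adjusted p = 0.0090) and lost the call without nt replicate 2 (-0.44, adjusted p = 0.059) or siBrca1 replicate 2 (-0.27, adjusted p = 0.081), and Bax, another proapoptotic target, did not pass (-0.14, adjusted p = 0.29). The number of p53 targets that fell was 2 without siBrca1 replicate 2, 2 without nt replicate 2 and 8 without siBrca1 replicate 1, and the median was -0.0023 without nt replicate 2 and -0.048 after quantile normalization.

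The 4 reprogramming factors were lower. Sox2 stood at 324 and 350.4 CPM in the nt libraries and 186 and 121 CPM in the siBrca1 libraries. Its fall was the largest of the 4 (log2 fold change -1.17 ± 0.21 (SE), adjusted p = 0.00053), and Myc, Pou5f1 and Klf4 changed by -1.07, -1.05 and -0.97. For all 4 the siBrca1 libraries lay below the nt libraries, replicate 2 lowest, and the values pool cassette and endogenous transcripts. Of the 25 tested genes of the endogenous network, 11 fell and 3 rose. L1td1, an RNA-binding protein of embryonic stem cells, stood at 84.0 and 86.5 CPM in the nt libraries and 28.2 and 12.4 CPM in the siBrca1 libraries. It was 4.55-fold lower with no overlap (log2 fold change -2.19 ± 0.25 (SE), adjusted p = 2.0e-05). Tet2, which oxidizes methylcytosine, went from 107 and 94.0 CPM in nt to 52.5 and 53.2 CPM in siBrca1 (log2 fold change -0.92 ± 0.11 (SE), adjusted p = 2.5e-05). Klf2, a relative of Klf4, went the other way, from 2.71 and 2.70 CPM in nt to 8.03 and 8.01 CPM in siBrca1 (log2 fold change 1.57 ± 0.22 (SE), adjusted p = 8.0e-05). None of these groups overlapped. Nanog, a core factor that comes on late, was at 0.994 and 0.593 CPM in nt and 0.505 and 0.277 CPM in siBrca1, levels of few reads at which no change was detectable (adjusted p = 0.16). Zfp42, Dppa2, Dppa4, Utf1 and Prdm14 did not reach the level needed for a test or were not analysed here.

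Epithelial genes went both ways. Of 38 tested genes 9 fell (23.7%) and 5 rose (13.2%), beside 21.8% and 25.4% of all genes. By adjusted p alone the falls were thus near the share of all genes and the rises below it. Past 2-fold 7 of the 38 genes fell, above the 6.27% of all genes, and 2 rose, beside 7.12% of all genes. The median was -0.41, with -0.19 in siBrca1 replicate 1 and -0.27 without nt replicate 1. Dsp, the desmosomal plakin, went from 219.6 and 250.1 CPM in nt to 135 and 97.3 CPM in siBrca1 (log2 fold change -1.03 ± 0.16 (SE), adjusted p = 0.00018). F11r, a tight junction adhesion molecule, went from 8.91 and 10.0 CPM in nt to 19.9 and 25.7 CPM in siBrca1 (log2 fold change 1.26 ± 0.17 (SE), adjusted p = 6.0e-05). Jup, which encodes plakoglobin, went from 48.1 and 51.8 CPM in nt to 90.1 and 89.5 CPM in siBrca1 (log2 fold change 0.85 ± 0.12 (SE), adjusted p = 7.1e-05). In all 3 the groups did not overlap. Krt18, a keratin gene of simple epithelia, rose (1.04, adjusted p = 0.0091) but lost the call without nt replicate 1 (0.95, adjusted p = 0.064) or siBrca1 replicate 1 (0.52, adjusted p = 0.13). Krt8, which pairs with it, did not pass (-0.85, adjusted p = 0.086), but it passed as lower without nt replicate 2 (-1.44, adjusted p = 0.013) or siBrca1 replicate 2 (-1.10, adjusted p = 0.021). Both keratin genes were low at day 3, Krt8 at 8.05 and 3.56 CPM in nt beside 169 and 232 CPM in nt at day 6. Of the regulators and other genes of this identity 3 of 10 fell and the other 7 did not pass. The protease inhibitor gene Spint1 (-1.27) and the splicing regulator gene Esrp2 (-1.04) were among those that fell. The keratinocyte markers, Krt5 and Krt14 among them, summed to 1.79 and 3.14 CPM in siBrca1 and 2.40 and 2.85 CPM in nt.

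Mesenchymal identity genes were higher in 17 of 23 cases, and the other 6 did not pass (median 0.66). The rises were 11 without nt replicate 1. The homeobox gene Prrx1 of limb and craniofacial mesenchyme stood at 238 and 243 CPM in the nt libraries and 452 and 549 CPM in the siBrca1 libraries. Its relative Prrx2 stood at 52.8 and 62.8 CPM in the nt libraries and 120.2 and 128 CPM in the siBrca1 libraries. Both were higher in each siBrca1 library than in any nt library, by 2.08-fold (adjusted p = 1.2e-05) and 2.15-fold (adjusted p = 2.2e-05). Zeb1, a repressor of epithelial genes, went from 80.7 and 73.5 CPM in nt to 142 and 176 CPM in siBrca1 (log2 fold change 1.04 ± 0.12 (SE), adjusted p = 1.9e-05). Zeb2, of the same family, went from 86.4 and 85.4 CPM in nt to 146 and 194 CPM in siBrca1 (log2 fold change 0.97 ± 0.12 (SE), adjusted p = 4.3e-05), again without overlap. Of the 9 fibroblast markers 5 rose and 1 fell, and they summed to 10309 and 9119 CPM in siBrca1 and 6034 and 6967 CPM in nt. Their part in this result was not tested. Of the 4 tested neural markers 3 were lower, with a sum of 84.1 and 56.0 CPM in siBrca1 and 155 and 142 CPM in nt, and endothelial markers summed to 47.3 and 29.2 CPM in siBrca1 and 46.5 and 44.2 CPM in nt.

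All 6 TGF-beta and activin ligand genes tested rose by more than 2-fold. Of 33 genes of the TGF-beta pathway 25 were higher, 14 by more than 2-fold, and 1 lower (median 0.69), in cells that had the receptor kinase inhibitor in both groups. Tgfb3 stood at 61.3 and 70.5 CPM in the nt libraries and 272 and 353 CPM in the siBrca1 libraries. Every siBrca1 library was above every nt library, a 4.71-fold rise (log2 fold change 2.24 ± 0.14 (SE), adjusted p = 2.8e-07). Inhba, the activin A subunit gene, stood at 66.2 and 69.5 CPM in the nt libraries and 238 and 318 CPM in the siBrca1 libraries (4.06-fold, log2 fold change 2.02 ± 0.12 (SE), adjusted p = 2.8e-07). Neither gene overlapped between groups. Among the proteins that store and release the ligands, 6 of 6 genes rose, with Thbs1, which activates latent TGF-beta, at 1.96 and Ltbp2 at 1.45. Receptors moved less: 3 of 7 rose, Tgfbr2 did not pass (0.25, adjusted p = 0.086, but 0.39, adjusted p = 0.013 without siBrca1 replicate 2 and adjusted p = 0.043 with libraries centred on their median gene), and Acvr2b, an activin receptor gene, fell (-0.87, adjusted p = 0.0042). The feedback inhibitor Smad7 rose by 1.50. Of the targets, Ctgf, a matricellular target of both TGF-beta and YAP, went from 29.8 and 42.2 CPM in nt to 234 and 417 CPM in siBrca1 (log2 fold change 3.14 ± 0.22 (SE), adjusted p = 7.4e-07), and 23.2% of its exon bases are shared with another annotated gene. Without siBrca1 replicate 1, 2 genes of the pathway were lower.

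Of the BMP, WNT and FGF genes 25 of 49 rose and 4 fell (median 0.50). The rises included a secreted antagonist: Grem1, which binds BMPs, went from 107 and 124 CPM in nt to 235 and 276 CPM in siBrca1 (log2 fold change 1.15 ± 0.12 (SE), adjusted p = 9.7e-06). Wnt4, a signaling ligand gene, went from 16.2 and 21.4 CPM in nt to 49.6 and 62.0 CPM in siBrca1 (log2 fold change 1.57 ± 0.15 (SE), adjusted p = 5.5e-06). Fgf7, a fibroblast growth factor that acts on epithelia, went from 10.8 and 9.60 CPM in nt to 26.3 and 38.0 CPM in siBrca1 (log2 fold change 1.63 ± 0.16 (SE), adjusted p = 8.3e-06). The siBrca1 and nt libraries did not overlap in any of the 3. The fallers were Bmp2 (-1.15), Fgf18 (-1.36), the WNT effector gene Lef1 (-1.34) and Etv5 (-0.44), a target of FGF signaling, and 7 fell without siBrca1 replicate 1. Etv5 lost the call without nt replicate 1 (-0.40, adjusted p = 0.060).

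The contractile apparatus and its SRF program rose without exception among the genes tested: 41 of 41 were higher, 26 by more than 2-fold. The median was 1.28, with 1.20 in siBrca1 replicate 1 and 1.29 in replicate 2, though 34 of the 41 genes changed more in replicate 2. Acta1, the skeletal muscle actin gene, stood at 9.83 and 12.2 CPM in the nt libraries and 87.2 and 105 CPM in the siBrca1 libraries. Every siBrca1 library lay above every nt library, 8.76-fold on the mean (log2 fold change 3.13 ± 0.16 (SE), adjusted p = 2.2e-07). Myh11, the smooth muscle myosin heavy chain gene, stood at 96.3 and 113 CPM in the nt libraries and 551 and 732 CPM in the siBrca1 libraries. It was 6.10-fold higher (log2 fold change 2.61 ± 0.14 (SE), adjusted p = 2.2e-07), with the groups apart. Actg2, an enteric smooth muscle actin gene, went from 119.7 and 149 CPM in nt to 657 and 881 CPM in siBrca1 (log2 fold change 2.51 ± 0.15 (SE), adjusted p = 2.8e-07). Mylk, the kinase of the myosin light chain, went from 25.4 and 28.7 CPM in nt to 101 and 117 CPM in siBrca1 (log2 fold change 2.01 ± 0.12 (SE), adjusted p = 2.8e-07). All 12 thin filament genes rose, calponin Cnn1 by 2.19 and tropomyosin Tpm1 by 1.49, and all 13 focal adhesion and crosslinker genes. Tagln rose by 2.25, but it shares 68% of its exon bases with Pcsk7, so its value is uncertain. The regulators rose less, Srf by 0.70, its coactivators Mkl1 by 0.64 and Myocd by 1.44. Leaving out siBrca1 replicate 2, 40 genes were higher (median 1.20). Skeletal muscle markers summed to 166 and 173 CPM in siBrca1 and 34.6 and 43.4 CPM in nt, with 1 of 2 tested higher and 1 lower (Des, 2.26, and Myh3, -1.50). Myod1, Myog, Myf5, Ckm and Tnnc2 were not analysed here, and the part of muscle cells in the result was not tested.

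YAP and TAZ target genes rose with them. Of the 15 targets 14 were higher, 9 by more than 2-fold (median 1.16), and Nuak2 did not pass (-0.0080, adjusted p = 0.97). Ankrd1, a stretch-induced ankyrin repeat gene, stood at 15.9 and 24.1 CPM in the nt libraries and 119 and 158 CPM in the siBrca1 libraries. It was 7.002-fold higher, both siBrca1 libraries far above both nt libraries (log2 fold change 2.81 ± 0.17 (SE), adjusted p = 2.8e-07). Cyr61, a matricellular gene, went from 169 and 201 CPM in nt to 508 and 565 CPM in siBrca1 (log2 fold change 1.54 ± 0.12 (SE), adjusted p = 1.2e-06). Crim1, which encodes a membrane protein that binds BMPs, went from 143 and 153 CPM in nt to 391 and 446 CPM in siBrca1 (log2 fold change 1.50 ± 0.12 (SE), adjusted p = 1.3e-06). The coactivators moved less, Yap1 by 0.33 (a call lost without nt replicate 1, 0.32, adjusted p = 0.10, or nt replicate 2, 0.34, adjusted p = 0.083, and after quantile normalization, 0.17, adjusted p = 0.070) and Wwtr1, which encodes TAZ, by 0.57, while the upstream inhibitor gene Nf2 fell (-0.50, adjusted p = 0.0016). Without siBrca1 replicate 1, 2 genes of the whole list were lower in place of 1.

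The promoters of both lists were searched as well. The TEAD letters CATTCC, the site of the factors that YAP and TAZ bind, were searched on either strand. They were found in 14 of 21 YAP and TAZ genes with a window (66.7%) and 14 of 32 contractile genes (43.8%). The shares were 14.5% of tested genes and 16.6% of all RefSeq genes. Within the YAP and TAZ list the targets held them no more often than the rest. They were in 6 of 9 targets and 8 of 12 upstream and coactivator genes, 66.7% each. The CArG box, the site of SRF, was found in 8 contractile genes (25.0%), beside 1.60% and 1.81%. The windows of Ankrd1 (chr19:36119795-36120094, minus strand) and of Myl9, a myosin light chain gene that rose by 2.20 (chr2:156775214-156775513, plus strand), are shown with TEAD letters and the CArG box, in that order, in capitals.
Ankrd1: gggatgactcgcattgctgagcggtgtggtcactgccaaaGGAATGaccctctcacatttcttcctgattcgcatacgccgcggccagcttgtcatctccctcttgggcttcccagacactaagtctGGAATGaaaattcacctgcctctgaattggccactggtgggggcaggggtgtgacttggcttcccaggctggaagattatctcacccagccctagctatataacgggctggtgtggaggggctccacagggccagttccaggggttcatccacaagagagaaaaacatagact
Myl9: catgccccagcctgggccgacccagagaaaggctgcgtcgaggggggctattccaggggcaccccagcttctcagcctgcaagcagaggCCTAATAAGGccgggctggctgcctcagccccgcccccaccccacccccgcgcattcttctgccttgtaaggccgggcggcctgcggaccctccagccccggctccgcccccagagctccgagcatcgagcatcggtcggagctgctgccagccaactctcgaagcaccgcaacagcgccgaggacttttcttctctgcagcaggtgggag
In Ankrd1 the 2 TEAD matches are on the strand opposite to the one printed. Some genes, Ctgf and Tgfb2 among them, belong to more than one of these lists.

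**Figure D3:**
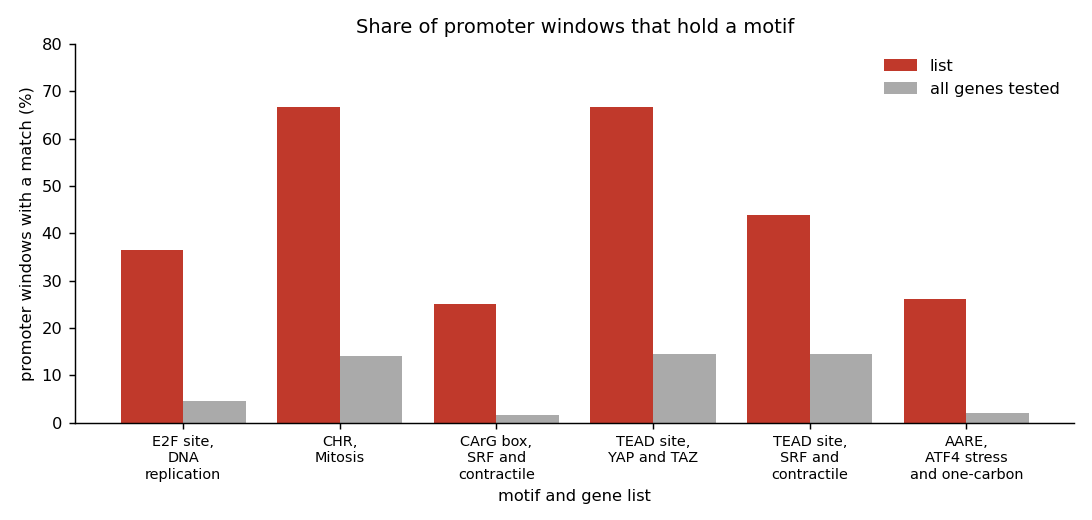
Share of genes with a promoter window (percent, from 250 bases before to 50 after the start) that hold a motif in any of their windows, in a gene list (red) and in all genes tested (grey). The largest shares are those of the CHR in mitotic genes and of the TEAD site in YAP and TAZ genes, 66.7% each, against 14.1% and 14.5% of all genes tested.

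Matrix genes were mostly higher. Among collagens 18 of 31 rose and 2 fell (median 0.57, but 0.16 after quantile normalization), and 1 fell without either nt library or siBrca1 replicate 2. Col8a1, a short-chain collagen of vessel walls, stood at 66.4 and 81.6 CPM in the nt libraries and 237 and 292 CPM in the siBrca1 libraries. The groups were well apart (3.58-fold, log2 fold change 1.84 ± 0.13 (SE), adjusted p = 7.6e-07). Col2a1, the cartilage collagen, went from 11.2 and 13.8 CPM in nt to 38.8 and 45.5 CPM in siBrca1 (log2 fold change 1.76 ± 0.15 (SE), adjusted p = 2.9e-06). Col4a5, of basement membranes, went from 120.2 and 144 CPM in nt to 292 and 377 CPM in siBrca1 (log2 fold change 1.33 ± 0.13 (SE), adjusted p = 8.1e-06). Of the abundant fibrillar genes, Col1a1 rose (0.72, adjusted p = 0.0048) but lost the call without nt replicate 1 (0.58, adjusted p = 0.094), and its sign turned after quantile normalization (-0.088, adjusted p = 0.64). Col3a1 did not pass (-0.39, adjusted p = 0.065), but it passed as lower without siBrca1 replicate 1 (-0.68, adjusted p = 0.00023) and after quantile normalization (-0.67, adjusted p = 0.0082). Col5a3, of the same family, fell by 0.79.

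Of 59 other matrix proteins and crosslinking enzymes 41 rose and 3 fell (median 0.64). Tgm2, a transglutaminase that crosslinks matrix proteins, stood at 18.1 and 20.3 CPM in the nt libraries and 69.7 and 88.0 CPM in the siBrca1 libraries. It was 4.08-fold higher with no overlap (log2 fold change 2.03 ± 0.15 (SE), adjusted p = 8.0e-07), and 22% of its exon bases are shared with another annotated gene. Lox, the lysyl oxidase gene that crosslinks collagen and elastin, went from 104 and 120.3 CPM in nt to 284 and 321 CPM in siBrca1 (log2 fold change 1.44 ± 0.12 (SE), adjusted p = 2.4e-06). Its relative Loxl2 went from 75.3 and 84.3 CPM in nt to 211 and 261 CPM in siBrca1 (log2 fold change 1.56 ± 0.12 (SE), adjusted p = 1.4e-06). Nid2, which links laminin to collagen IV, went from 169 and 179 CPM in nt to 385 and 408 CPM in siBrca1 (log2 fold change 1.19 ± 0.10 (SE), adjusted p = 3.1e-06). All 4 enzymes and linkers above were higher in both siBrca1 libraries. Eln, the elastin gene, fell instead (-1.72, adjusted p = 0.0027) from 1.26 and 1.51 CPM in nt.

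Integrin and laminin genes rose in 17 of 27 cases and fell in 2 (median 0.71). The fibronectin receptor subunit Itga5 went from 119 and 148 CPM in nt to 478 and 666 CPM in siBrca1 (log2 fold change 2.09 ± 0.16 (SE), adjusted p = 1.4e-06). The collagen receptor subunit Itga1 went from 12.1 and 13.1 CPM in nt to 29.7 and 37.0 CPM in siBrca1 (log2 fold change 1.40 ± 0.14 (SE), adjusted p = 6.8e-06). Itga11, which also binds collagen, went from 6.60 and 6.47 CPM in nt to 20.9 and 25.5 CPM in siBrca1 (log2 fold change 1.82 ± 0.18 (SE), adjusted p = 7.8e-06). All 3 integrin genes were higher in both siBrca1 libraries. Lama1, the laminin chain of early embryos, fell from 144 and 136 CPM in nt to 69.3 and 44.1 CPM in siBrca1 (log2 fold change -1.34 ± 0.16 (SE), adjusted p = 3.2e-05). In each of these the siBrca1 pair and the nt pair did not overlap.

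Matrix proteases and inhibitors rose in 21 of 32 cases (median 0.77). Timp3, an inhibitor of metalloproteases held in the matrix, stood at 96.3 and 106 CPM in the nt libraries and 274 and 299 CPM in the siBrca1 libraries (log2 fold change 1.50 ± 0.10 (SE), adjusted p = 7.4e-07), and 21% of its exon bases are shared with Syn3. Adamts5, which cleaves aggrecan, went from 85.1 and 86.4 CPM in nt to 178 and 186 CPM in siBrca1 (log2 fold change 1.08 ± 0.10 (SE), adjusted p = 4.1e-06). The sheddase gene Adam19 went from 91.2 and 105 CPM in nt to 224 and 254 CPM in siBrca1 (log2 fold change 1.29 ± 0.12 (SE), adjusted p = 4.3e-06). All 3 were higher in both siBrca1 libraries. Mmp3, which encodes stromelysin, fell (-1.76, adjusted p = 0.00012), and the number of genes of this list that fell was 3, 1 without siBrca1 replicate 2 and 6 without replicate 1.

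Of the 8 antigen presentation genes within the interferon list 7 rose and 1 fell, and in the whole list 20 of 53 rose and 4 fell (median 0.44). B2m, the shared light chain of MHC class I, stood at 109 and 115 CPM in the nt libraries and 181 and 241 CPM in the siBrca1 libraries. Both siBrca1 values were above both nt values (log2 fold change 0.90 ± 0.13 (SE), adjusted p = 0.00011). The class I heavy chain gene H2-D1 went from 36.0 and 40.8 CPM in nt to 64.9 and 79.6 CPM in siBrca1 (log2 fold change 0.91 ± 0.14 (SE), adjusted p = 0.00013). Tap2, which carries peptides to it, went from 3.57 and 4.24 CPM in nt to 9.13 and 14.8 CPM in siBrca1 (log2 fold change 1.58 ± 0.24 (SE), adjusted p = 0.00016). Psmb10, an immunoproteasome subunit gene, was the one that fell (-1.12, adjusted p = 0.00069). Of the sensors 4 of 10 rose and of the effectors 7 of 26 (26.9%), the latter near the 25.4% of all genes. Without nt replicate 2 the whole list had 13 rises, and without either nt library or siBrca1 replicate 2 it had 2 falls. Macrophage markers, with 2 of 5 tested higher, summed to 29.3 and 24.7 CPM in siBrca1 and 16.6 and 15.6 CPM in nt. Their part in this result was not tested, and Ptprc, Fcer1g and Cx3cr1 were not analysed here.

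Of 46 secreted inflammatory and growth factor genes 24 rose and 2 fell (median 0.54). Csf1, the macrophage colony-stimulating factor gene, stood at 214 and 261 CPM in the nt libraries and 689 and 959 CPM in the siBrca1 libraries. It was 3.44-fold higher with no overlap (log2 fold change 1.78 ± 0.15 (SE), adjusted p = 2.6e-06). Igfbp7, which binds insulin-like growth factors, went from 58.2 and 57.2 CPM in nt to 189 and 214 CPM in siBrca1 (log2 fold change 1.80 ± 0.15 (SE), adjusted p = 2.9e-06). Igfbp2, of the same kind, went from 82.5 and 82.1 CPM in nt to 245 and 206 CPM in siBrca1 (log2 fold change 1.45 ± 0.13 (SE), adjusted p = 5.2e-06). Cxcl5, a neutrophil chemokine gene, went from 63.2 and 64.1 CPM in nt to 128 and 159 CPM in siBrca1 (log2 fold change 1.16 ± 0.12 (SE), adjusted p = 1.1e-05). These 4 genes were higher in both siBrca1 libraries. Il6 rose by 1.92 from 1.26 and 1.16 CPM in nt. Of the chemokines 8 of 10 rose. The cytokine gene Il34 fell (-0.88) and lost the call without nt replicate 1 (-0.87, adjusted p = 0.066), nt replicate 2 (-0.89, adjusted p = 0.058) or siBrca1 replicate 2 (-0.55, adjusted p = 0.097). Angpt1, a vessel growth factor gene, fell (-0.94) and lost it without nt replicate 1 (-0.57, adjusted p = 0.27) or siBrca1 replicate 2 (-0.75, adjusted p = 0.096), without a filter (adjusted p = 0.051) and with the 4 libraries alone (adjusted p = 0.064). Without siBrca1 replicate 1, 5 genes of the list fell.

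Lipid and retinoid genes rose in 20 of 37 cases and fell in 6 (median 0.57, and 0.22 among genes whose log2 CPM averaged at least 2), and 3 fell without either nt library. Plin2, the coat of lipid droplets, stood at 130.3 and 119 CPM in the nt libraries and 305 and 517 CPM in the siBrca1 libraries. Both siBrca1 libraries were above nt, replicate 2 the higher (3.19-fold, log2 fold change 1.67 ± 0.18 (SE), adjusted p = 1.3e-05). Dhrs3, which turns retinal back to retinol, went from 5.87 and 5.73 CPM in nt to 14.96 and 14.98 CPM in siBrca1 (log2 fold change 1.37 ± 0.16 (SE), adjusted p = 2.2e-05). The fatty acid carrier gene Fabp3 went from 1.39 and 1.79 CPM in nt to 5.30 and 9.56 CPM in siBrca1 (log2 fold change 2.17 ± 0.31 (SE), adjusted p = 9.9e-05). Pparg, the master regulator of fat cells, rose by 1.31, and Aldh1a2, which makes retinoic acid, fell by 1.23. Of the cholesterol synthesis genes 6 of 24 rose and 2 fell, near and below the shares of all genes. Hsd17b7, of a late step of the pathway, went from 30.7 and 30.4 CPM in nt to 52.4 and 70.1 CPM in siBrca1 (log2 fold change 0.99 ± 0.15 (SE), adjusted p = 0.00014), and Dhcr7, of the last step, fell (-0.67, adjusted p = 0.0012).

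The ATF4 stress genes differed between the siBrca1 replicates. Of 24 genes 10 rose and 6 fell, and the median was -0.075 in siBrca1 replicate 1 and 0.47 in replicate 2. Trib3, a pseudokinase that damps the stress response, stood at 3.24 and 2.65 CPM in the nt libraries and 5.37 and 31.9 CPM in the siBrca1 libraries. It was highest in siBrca1 replicate 2, with replicate 1 above both nt libraries by less (log2 fold change 2.16 ± 0.55 (SE), adjusted p = 0.0054). Without siBrca1 replicate 2 its log2 fold change was 0.88. Chac1, which degrades glutathione, was alike at 4.62 and 5.04 CPM in the nt libraries and 6.04 and 23.7 CPM in the siBrca1 libraries (log2 fold change 1.31 ± 0.43 (SE), adjusted p = 0.024), and it lost the call without siBrca1 replicate 2 (0.32, adjusted p = 0.40), nt replicate 1 (1.25, adjusted p = 0.089) or nt replicate 2 (1.37, adjusted p = 0.061), without a filter (adjusted p = 0.092) or a variance trend (adjusted p = 0.094), and with the 4 libraries alone (adjusted p = 0.092). Both genes and Sox2, Mcm5 and Plk1 in the plot of single genes were picked for values by library after these were seen. Vldlr, a lipoprotein receptor gene, went from 11.5 and 12.7 CPM in nt to 25.8 and 63.4 CPM in siBrca1 (log2 fold change 1.75 ± 0.28 (SE), adjusted p = 0.00023). Vldlr, too, was highest in siBrca1 replicate 2, and both siBrca1 libraries were above nt. Shmt1, of folate-dependent serine metabolism, went the other way, from 93.6 and 94.1 CPM in nt to 45.3 and 24.4 CPM in siBrca1 (log2 fold change -1.50 ± 0.20 (SE), adjusted p = 5.7e-05). Mthfd1l, of mitochondrial one-carbon metabolism, went from 111 and 115 CPM in nt to 74.3 and 71.3 CPM in siBrca1 (log2 fold change -0.64 ± 0.10 (SE), adjusted p = 0.00024). Psat1, of serine synthesis, fell by 0.49. Atf4 itself did not pass (0.16, adjusted p = 0.45), but it passed as higher without siBrca1 replicate 1 (0.49, adjusted p = 0.0016) and its sign turned without replicate 2 (-0.17, adjusted p = 0.31). Without siBrca1 replicate 2 the list had 7 rises and 9 falls, and without replicate 1 14 and 6.

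The amino acid response element (AARE) was searched as TGATGCAA, TGATGAAA, TGATGCAT and TGATGAAT on both strands. Of these genes 23 had a window and 6 held a match (26.1%), beside 1.99% of tested genes and 3.69% of all RefSeq genes. The window of Chac1 (chr2:119350992-119351291, plus strand) is shown because the gene parts the replicates. Its match, on the strand opposite to the one printed, is in capitals.
Chac1: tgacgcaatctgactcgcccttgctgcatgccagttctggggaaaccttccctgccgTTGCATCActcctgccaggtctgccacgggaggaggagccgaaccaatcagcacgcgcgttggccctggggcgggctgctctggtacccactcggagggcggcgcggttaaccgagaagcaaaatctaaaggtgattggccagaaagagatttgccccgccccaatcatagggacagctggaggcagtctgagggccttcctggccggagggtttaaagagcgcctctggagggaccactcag
The match starts 193 bases before the start.

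**Figure D4:**
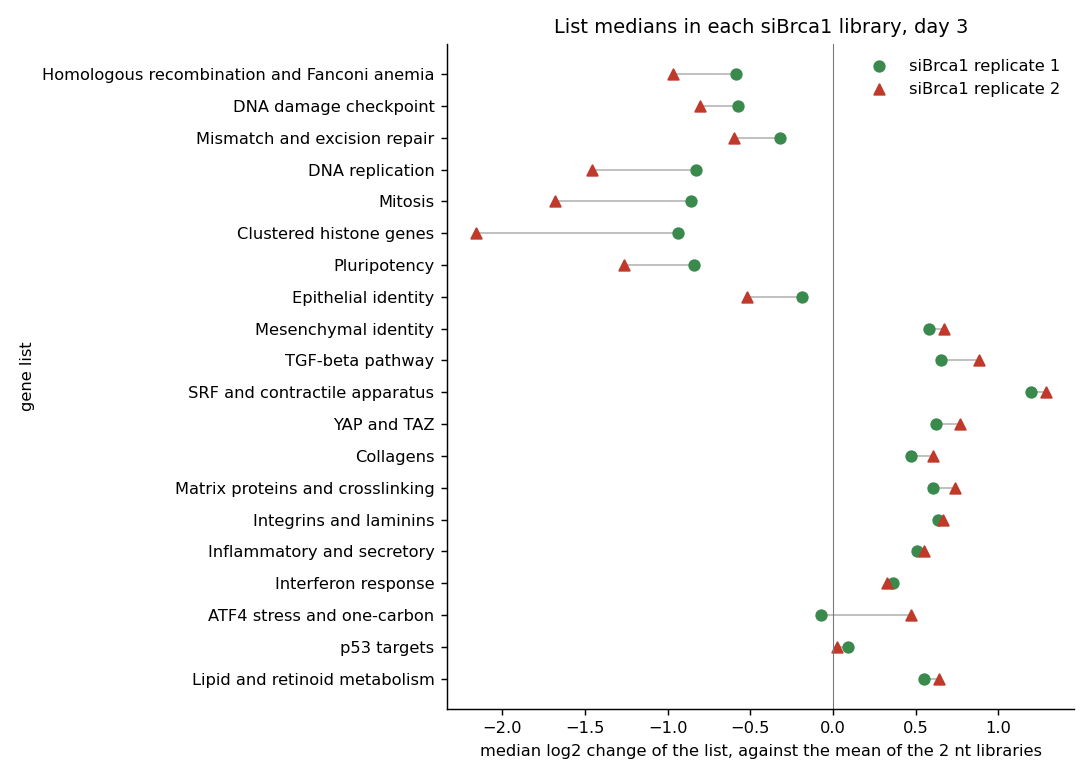
Median log2 change of 20 gene lists in siBrca1 replicate 1 (green circles) and replicate 2 (red triangles), each against the mean of the 2 nt libraries of day 3. Repair, replication, mitotic and histone lists lie further from 0 in replicate 2. The medians of the contractile and matrix protein lists differ less, though 34 of 41 and 46 of 59 genes changed more in replicate 2. The ATF4 list is at -0.075 in replicate 1 and 0.47 in replicate 2.

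Glycolysis and hypoxia genes were split, 8 of 25 higher (32%) and 6 lower (24%), beside 25.4% and 21.8% of all genes. The median was 0.047, but -0.17 after quantile normalization. Adm, which encodes the vessel-relaxing peptide adrenomedullin, went from 23.7 and 26.0 CPM in nt to 62.5 and 59.4 CPM in siBrca1 (log2 fold change 1.30 ± 0.12 (SE), adjusted p = 6.1e-06). Hk1, the first enzyme of glycolysis, went from 63.9 and 70.6 CPM in nt to 116 and 157 CPM in siBrca1 (log2 fold change 1.01 ± 0.13 (SE), adjusted p = 6.2e-05). Pdk1, which holds pyruvate back from the mitochondrion, fell from 48.9 and 49.6 CPM in nt to 23.1 and 16.1 CPM in siBrca1 (log2 fold change -1.35 ± 0.15 (SE), adjusted p = 1.9e-05). The groups did not overlap in any of the 3. The falls numbered 3 without nt replicate 1 or siBrca1 replicate 2 and 2 without nt replicate 2.

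Chromatin genes of both lists examined fell more often than they rose. Dpy30, a core subunit of the H3K4 methyltransferase complexes, stood at 99.8 and 93.6 CPM in the nt libraries and 43.4 and 26.2 CPM in the siBrca1 libraries. It was 2.87-fold lower with no overlap (log2 fold change -1.52 ± 0.19 (SE), adjusted p = 3.3e-05), and 7 of 17 subunit genes fell (median -0.23), Wdr5 among the fallers (-0.87, adjusted p = 2.5e-05). Of the DNA methylation and PRC2 genes 12 of 20 fell and 3 rose (median -0.51). Uhrf1, which brings the maintenance methyltransferase to new DNA, went from 213 and 220.1 CPM in nt to 113 and 61.3 CPM in siBrca1 (log2 fold change -1.38 ± 0.19 (SE), adjusted p = 9.2e-05). Ezh2, the PRC2 methyltransferase gene, went from 62.3 and 59.8 CPM in nt to 38.0 and 32.4 CPM in siBrca1 (log2 fold change -0.80 ± 0.13 (SE), adjusted p = 0.00021). The rises numbered 0 without nt replicate 1 or siBrca1 replicate 2 and 1 without nt replicate 2. Imprinted genes rose in 9 of 16 cases (median 0.48, and 0.24 after quantile normalization) and fell in 2, 1 without either nt library or siBrca1 replicate 2. Peg10, a retrotransposon-derived gene, went from 124 and 97.9 CPM in nt to 211 and 313 CPM in siBrca1 (log2 fold change 1.22 ± 0.16 (SE), adjusted p = 5.3e-05). Igf2r, which clears IGF2, went from 534 and 543 CPM in nt to 822 and 1079 CPM in siBrca1 (log2 fold change 0.81 ± 0.13 (SE), adjusted p = 0.00025). H19 did not pass (-0.21, adjusted p = 0.18), but it passed as lower after quantile normalization (-0.52, adjusted p = 0.00080), and Mest fell by 1.35 with 23% of its exon bases shared with Copg2.

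The largest changes of single genes reached some genes outside these lists, while Pgf, named below, is also in the secreted growth factor list. They were ranked among genes past the 2-fold rule, leaving out unnamed gene models and ribosomal and small RNA. The siBrca1 and nt libraries were also required not to overlap, which left out none of the 999 and 879 genes. Among the 15 largest rises was Prl2c3, a prolactin-family gene of growing fibroblasts, which went from 1.98 and 2.36 CPM in nt to 9.95 and 22.9 CPM in siBrca1 (log2 fold change 2.80 ± 0.30 (SE), adjusted p = 1.2e-05). Maob, a monoamine oxidase gene, went from 2.58 and 3.22 CPM in nt to 14.4 and 21.4 CPM in siBrca1 (log2 fold change 2.61 ± 0.22 (SE), adjusted p = 2.9e-06). Cyp1a1, the classic target of the aryl hydrocarbon receptor, went from 0.994 and 1.96 CPM in nt to 10.3 and 8.16 CPM in siBrca1 (log2 fold change 2.72 ± 0.32 (SE), adjusted p = 2.5e-05). These 3 were higher in both siBrca1 libraries. Selp, which encodes P-selectin, went from 0.664 and 0.650 CPM in nt to 3.53 and 4.99 CPM in siBrca1 (log2 fold change 2.68 ± 0.28 (SE), adjusted p = 1.2e-05). The placental growth factor gene Pgf went from 0.334 and 0.479 CPM in nt to 2.20 and 3.58 CPM in siBrca1 (log2 fold change 2.81 ± 0.43 (SE), adjusted p = 0.00016). Both genes were below 1 CPM in the nt libraries and above it in the siBrca1 libraries. Of the 15 largest falls, some reached the floor in siBrca1 replicate 2, among them Lrfn5 at 1.10 and 0.136 CPM in siBrca1, where its 0.136 CPM is the added constant and stands for 0 reads. Other falls rested on more reads. Grin2b, an NMDA receptor subunit gene, went from 14.0 and 9.55 CPM in nt to 2.64 and 0.980 CPM in siBrca1 (log2 fold change -2.84 ± 0.36 (SE), adjusted p = 4.0e-05). Sv2b, a synaptic vesicle gene, went from 12.4 and 12.9 CPM in nt to 2.79 and 1.26 CPM in siBrca1 (log2 fold change -2.75 ± 0.31 (SE), adjusted p = 2.0e-05). Sowaha, an ankyrin repeat gene, went from 12.3 and 12.6 CPM in nt to 2.496 and 1.75 CPM in siBrca1 (log2 fold change -2.57 ± 0.30 (SE), adjusted p = 2.5e-05). In these 3 the pairs did not overlap. Sp5, a target of WNT signaling, was among them at 3.10 and 2.19 CPM in nt and 0.874 and 0.207 CPM in siBrca1, the second siBrca1 value being that of 1 read.

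The siBrca1 libraries were then set directly against those of siBard1, the knockdown of the partner, and siWdr5, the knockdown of a chromatin protein. In the siBard1 libraries Bard1 itself had a log2 fold change against nt of -0.62 ± 0.19 (SE), adjusted p = 0.042, beside -1.38 after siBrca1, and the direct difference between these knockdowns was -0.76 ± 0.19 (SE), adjusted p = 0.014. Brca1 had a change of -0.38 ± 0.22 (SE), adjusted p = 0.26 after siBard1. Wdr5 changed by -1.31 ± 0.10 (SE), adjusted p = 3.0e-06 in the siWdr5 libraries. Against siBard1, 205 genes (1.46%) were higher and 217 (1.55%) lower by more than 2-fold, and against siWdr5, 439 (3.13%) were higher and 225 (1.60%) lower. Without a variance trend in the fit 24 genes were higher and 28 lower than after siBard1, so the counts against siBard1 given here rest on that setting. Of the mitotic genes 22 of 50 were lower than after siBard1 by more than 2-fold, with 7 of 52 recombination genes and 5 of 54 replication genes. Brca1 differed from siBard1 by -1.20 ± 0.22 (SE), adjusted p = 0.0045. Chek1 differed by -1.23 ± 0.19 (SE), adjusted p = 0.0037, and Bub1, a spindle checkpoint kinase gene, by -1.30 ± 0.21 (SE), adjusted p = 0.0042. The count against siBard1 turned on single libraries: 88 genes were lower and 67 higher without siBrca1 replicate 2, and 637 and 474 without replicate 1. Against siWdr5 they were 168 and 298, and 523 and 688.

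Other genes were higher after siBrca1 than after the other knockdowns. Plin2 was above siBard1 by 1.33 ± 0.18 (SE), adjusted p = 0.0037, Tgm2 by 1.49 ± 0.15 (SE), adjusted p = 0.00049, and Krt18 by 1.72 ± 0.29 (SE), adjusted p = 0.0042. The fatty acid transporter gene Cd36 was above siBard1 by 2.30 ± 0.39 (SE), adjusted p = 0.0042. Trib3 was above siBard1 by 2.94 ± 0.55 (SE), adjusted p = 0.0047 and above siWdr5 by 3.02 ± 0.55 (SE), adjusted p = 0.0027, with the larger rise in siBrca1 replicate 2 described before. Of the ATF4 genes 5 and 6 of 24 were above siBard1 and siWdr5 by more than 2-fold, and of the lipid genes 6 and 6 of 37. Of the interferon genes 8 of 53 were above siWdr5, Ifit1, which binds foreign RNA, by 2.27 ± 0.43 (SE), adjusted p = 0.0034. In the other direction 7 of 46 inflammatory genes were below siWdr5 by more than 2-fold, the chemokine gene Ccl8 by -2.32 ± 0.31 (SE), adjusted p = 0.00036.

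Each knockdown's own change against the same nt libraries is given side by side, as these comparisons share their controls. The median of the mitotic list was -1.29 after siBrca1, -0.26 after siBard1 and -0.73 after siWdr5, and that of the replication list -1.15 after siBrca1, -0.41 after siBard1 and -0.72 after siWdr5. The recombination list stood at -0.85 after siBrca1, -0.37 after siBard1 and -0.68 after siWdr5. The contractile list stood at 1.28 after siBrca1, 0.78 after siBard1 and 0.94 after siWdr5, the matrix protein list at 0.64 after siBrca1, 0.41 after siBard1 and 0.83 after siWdr5 and the inflammatory list at 0.54 after siBrca1, 0.39 after siBard1 and 0.84 after siWdr5. Of the reprogramming factors, Sox2 differed between siBrca1 and siBard1 by -0.056 ± 0.21 (SE), adjusted p = 0.88, and Klf4 by 0.047 ± 0.17 (SE), adjusted p = 0.87. Mylk, of the contractile genes, differed by 0.32 ± 0.12 (SE), adjusted p = 0.065. For Sox2 and Klf4 the difference was smaller than its standard error.

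**Figure D5:**
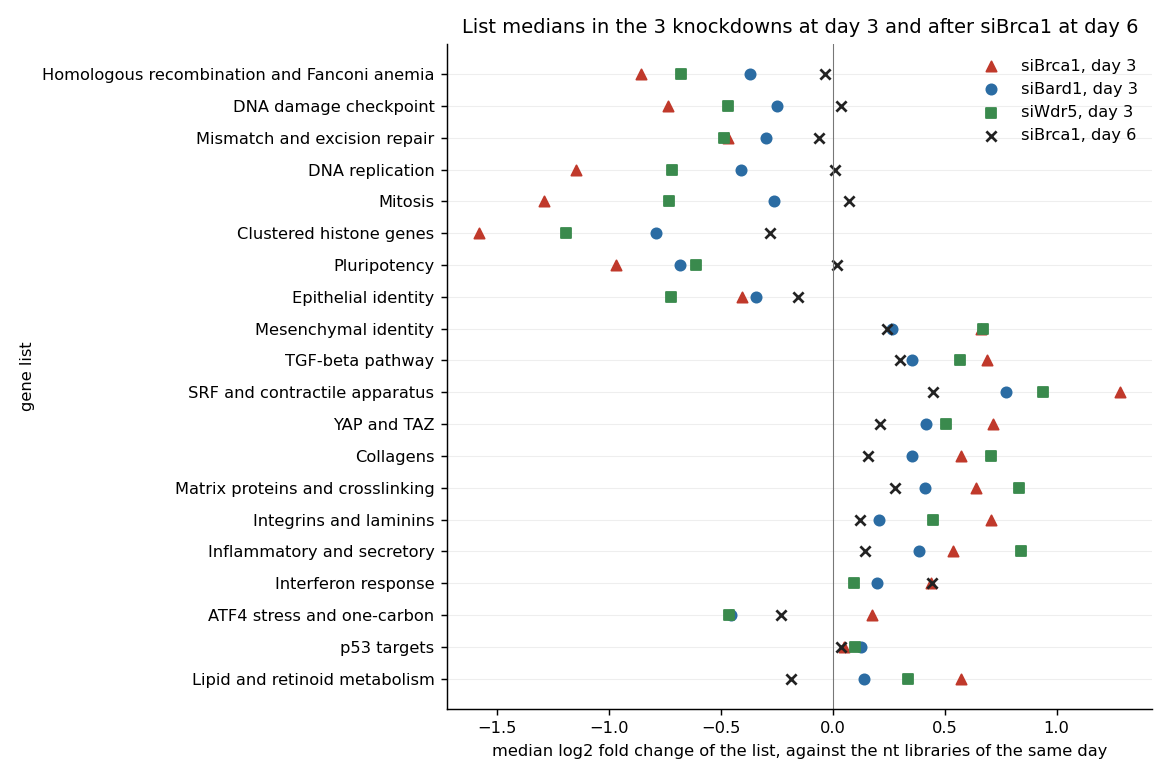
Median log2 fold change of 20 gene lists after siBrca1 (red triangles), siBard1 (blue circles) and siWdr5 (green squares) at day 3 and in the libraries labelled siBrca1 at day 6 (black crosses), each against the 2 nt libraries of the same day. Mitotic genes lie at -1.29, -0.26, -0.73 and 0.073 in that order, and contractile genes at 1.28, 0.78, 0.94 and 0.45.

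The change after siBrca1 was then compared with that in the libraries labelled siBrca1 at day 6, set against nt of the same day. No lower level of the target was detected in these day 6 libraries: Brca1 stood at 33.2 and 42.6 CPM in nt and 35.9 and 40.1 CPM in siBrca1 (log2 fold change 0.013 ± 0.14 (SE), adjusted p = 0.99). The difference of the change between days was tested as an interaction: it was positive in 555 genes (3.96%) and negative in 651 (4.64%) by more than 2-fold. Of the 999 genes higher at day 3, 500 had a lower change at day 6, and of the 879 lower genes 462 had a higher one, though the day 3 libraries chose the genes and enter this difference. At day 6, 0 genes (0.00%) were higher and 0 lower by this rule with limma, and 0 with limma-voom on the reads recovered from the table. Of the 14028 genes, 1123 had an unadjusted limma p below 0.05, a threshold that unchanged genes pass at a rate of 0.05. The interaction of Brca1 was 1.58 ± 0.30 (SE), adjusted p = 0.0039. Of the mitotic genes 44 of 50 had a positive interaction, of the replication genes 34 of 54, and of the recombination genes 18 of 52. Contractile genes stood at a day 6 median of 0.45, with a negative interaction in 8 of 41, Myh11 at 1.71 and Cnn1 at 1.76, neither past the threshold at day 6. Without siBrca1 replicate 2 the interaction was positive in 171 genes and negative in 266, and without replicate 1 in 973 and 983.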

How the data were processed

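Bulk RNA-seq libraries were made from 200 ng of total RNA with ribosomal depletion (Kapa RNA HyperPrep with RiboErase) and, per the authors, aligned to mm10 with STAR 2.5.2b. The deposited table holds log2 CPM values that the authors computed with edgeR 3.20.9, a normalized unit, 1 value per gene and library. Counting and strand settings were not given in the sources used here. Every value gave a whole read within 0.01 once the added constant of 0.136 CPM was removed, which gave the read totals.

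Genes whose log2 CPM averaged at least 0 over the 16 libraries were tested with limma 3.58.1 (R 4.3.3, trended variance) on the 8 day 3 libraries, and the difference between days on all 16, with Benjamini-Hochberg adjustment over the 14028 genes. A gene passed at an adjusted p below 0.05, and the 2-fold rule added an absolute log2 fold change above 1. The deposited CPM includes the constant. Other settings, limma-voom on the recovered reads among them, are given at the end. The fit was run on simulated data with replicates that were alike, which does not test it on libraries as unequal as those of siBrca1.

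Libraries were grouped by their titles. Gene lists were chosen with earlier results of these data known, and lists overlap. Values by library are given for Brca1, Bard1, up to 4 members a list with the lowest adjusted p and the 15 largest changes each way, with exceptions named, and some genes that this rule picked are not reported here. Symbols that stand for 2 genes numbered 7. Exon overlaps were taken from the annotation, since reads shared between genes make values uncertain. Promoters are RefSeq sequences matched by symbol.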

Additional observations from a re-analysis of the deposited data

Results flagged for a closer look

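The change against nt differed between the libraries labelled siBrca1 at day 3 and at day 6, where Brca1 itself was not detectably lower, tested as an interaction in limma with Benjamini-Hochberg adjustment: 555 genes had a higher change at day 6 than at day 3 by more than 2-fold, and 651 a lower one. Among the genes named above, the log2 difference (day 6 minus day 3) passed the test below -2 in Cd36 (-2.23), Chac1 (-2.13), Ctgf (-2.13), Cyp1a1 (-3.45), Fabp3 (-2.19), Maob (-2.36), Pgf (-2.57), Plin2 (-2.04), Prl2c3 (-2.23), Tgm2 (-2.04) and Trib3 (-2.91). It passed above 2 in Grin2b (2.58), L1td1 (2.28), Lrfn5 (3.46) and Sv2b (2.21), where the day 3 value of Lrfn5 in siBrca1 replicate 2 was 0 reads and its size depends on the added constant. Many of the genes listed here were named for their change at day 3. The day 3 libraries also enter this difference, which by itself favours the sign opposite to that change. Groups of 2 libraries are too small to single out a library by its distance from the others.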

How the results depend on the processing

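Groups of 2 libraries give a wide error, and siBrca1 replicate 2 carried most of the size of the falls. Of 96 counts under other settings 84 stayed within 1.5 times the value given. With a pseudocount of 1 CPM, 547 genes were lower by the 2-fold rule, 99 were higher and 85 lower than after siBard1, and 257 higher and 117 lower than after siWdr5. Among genes whose log2 CPM averaged at least 2, these last counts were 120, 134, 252 and 90, with fewer genes tested. Without a variance trend 24 and 28 genes differed from siBard1, and with only the 4 libraries of the groups compared 122 were lower than after siBard1. The cause was not tested. Leaving out 1 library gave 690 to 1390 genes higher and 474 to 1267 lower by the 2-fold rule, 2504 to 3871 and 1922 to 3395 by adjusted p alone, 67 to 474 and 88 to 637 against siBard1, 298 to 688 and 168 to 523 against siWdr5, and 171 to 973 and 266 to 983 for the difference between days, a lone library being assumed to vary like the others. By limma-voom on the recovered reads 1032 genes were higher and 902 lower.

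Replicate numbers 1 and 2 are shared by the titles only. The differences between replicates correlated at 0.0721 across genes between nt and siBrca1, so the numbers were not taken to pair libraries. With the replicate block 1002 genes were higher and 898 lower by the 2-fold rule.

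Named genes kept their direction and side of the threshold in 1756 of 1782 values under other settings and 680 of 720 without a library. The sign changed for Col1a1 with quantile normalization (-0.088), and for genes that had not passed: Nuak2 (0.019 with libraries centred on their median gene, 0.022 with quantile normalization, -0.16 to 0.14 without a library), Prkdc (0.0056 centred, -0.22 to 0.18), Trp53bp1 (0.017 centred, -0.049 to 0.029), Orc3 (-0.23 to 0.0025) and Atf4 (-0.17 to 0.49). Medians of gene lists moved by more than the spread between replicates in 26 of 290 values and, without a library, in 32 of 116.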
